A study of Macaca mulatta with 24 samples.

Results

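Day 7 after total body irradiation of rhesus macaques was compared with day 3 in whole blood RNA, with 7 arrays of day 7 against 4 arrays of day 3, which are 11 of the 24 arrays of the series. Arrays were assigned by their titles. Day 3 holds replicates 1, 2 and 4 (male) and 7 (female), and day 7 holds replicates 1 to 4 (male) and 5 to 7 (female). Every animal of both days had received 4 Gy, which the labels call X-rays and the study's methods a gamma source. The 7 arrays taken before irradiation, at 0 Gy, served as a level to compare with and entered no test but the fits of all 24 arrays. Those fits also hold the arrays of day 5 after 4 Gy. Strain and age were not given in the labels. RNA came from blood lysed in the collection tube and was depleted of globin transcripts with a kit made for human blood.

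Blood cells differ in how soon their numbers and their RNA follow the dose. Dividing progenitors in the marrow stop or die first, inhibitors of the cell cycle are raised, and lymphocytes in the blood die early. Circulating platelets carry RNA left from the megakaryocyte that shed them and make none of their own, and red cell precursors load young red cells with globin RNA. When surviving marrow and lymphoid cells divide again, genes of DNA replication and of mitosis are expressed together. In whole blood, fewer cells of a type and less RNA per cell cannot be told apart.

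Between day 3 and day 7, 4 of 57 genes of mitosis and 4 of 39 genes of T cells were called higher at day 7, and 6 of 21 platelet receptor genes, 12 of 34 platelet granule and shape genes and the cell cycle inhibitor CDKN1A were called lower. Of 27127 probes tested, 343 (1.26%) were called changed by limma at an adjusted p under 0.005, of which 86 (0.317%) were higher and 257 (0.947%) were lower at day 7. The log2 differences of called probes, as day 7 minus day 3, ran from −4.56 to 4.17. By mean signal, the brightest of 5 groups of probes (5426) had a median difference of −0.20, with 0 called higher and 58 lower. The other groups had medians of 0.06 to 0.09. All 343 had no overlap between the 2 groups of arrays, as 3288 of all probes (12.1%) had, 1588 higher (5.85%) and 1700 lower (6.27%). In 339 of the 343 each of the 4 pairs of replicates 1, 2, 4 and 7 moved the same way. The lack of overlap fixes this wherever both arrays of a pair hold a value. With a single probe per gene, the brightest, 175 of 11013 genes (1.59%) were called, 40 higher (0.363%) and 135 lower (1.23%). At an adjusted p under 0.05, 4353 probes (16.0%) passed, 2065 higher (7.61%) and 2288 lower (8.43%), which for genes came to 1880 (17.1%), 830 higher (7.54%) and 1050 lower (9.53%). The 2 days did not overlap in 1479 genes (13.4%), 673 higher (6.11%) and 806 lower (7.32%).

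The replicate numbers were taken to pair the arrays of the 2 days, and the number of calls depended on how this was used. With the replicate number as a random block 1904 probes (7.02%) were called, 814 higher (3%) and 1090 lower (4.02%), and 848 genes (7.7%), 330 higher (3%) and 518 lower (4.7%). With 4 pairs alone and the number as a fixed block 0 were called at the same threshold in limma, while 9840 had an unadjusted p under 0.05 and 4818 an adjusted p under 0.05. In a fit of all 24 arrays, where 4 groups share the estimate of the spread, 2177 of the same 27127 probes were called (8.03%), 949 higher (3.5%) and 1228 lower (4.53%). For genes this was 973 (8.84%), 383 higher (3.48%) and 590 lower (5.36%).

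The scan session differed between the days. All 4 day 3 arrays were scanned in session 2, as was replicate 5 of day 7, and the other 6 day 7 arrays were scanned in session 1. With the session as a fixed block 0 probes were called, and 2376 had an unadjusted p under 0.05, since replicate 5 then carried the comparison alone. A fit that left replicate 5 out called 36 probes higher and 143 lower at day 7. Replicate 5, scanned with the day 3 arrays, then lay above all 4 day 3 arrays in 34 of the 36 (94.4%, against 27.4% of all probes) and below all 4 in 140 of the 143 (97.9%, against 27.2%). These probes were chosen by their difference from the same 4 day 3 arrays, which raises both shares, and the shares over all probes are not what probes so chosen would give without a change. The median difference of these 143 probes was −2.49 without replicate 5 and −1.97 in replicate 5 alone, and that of the 36 was 1.84 and 1.37.

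**Figure D1:**
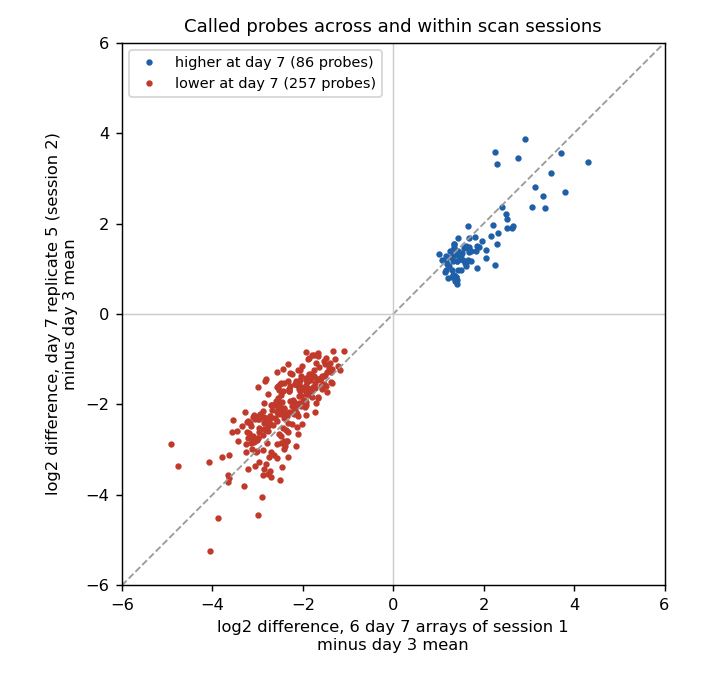
Each point is 1 of the 343 called probes. The horizontal axis gives the log2 difference of the 6 day 7 arrays of session 1 from the day 3 mean, the vertical axis that of day 7 replicate 5, which was scanned in session 2 with all day 3 arrays; the dashed line marks equal values. All 343 had the same sign on both axes, as 81.6% of all probes had for replicate 5 against the 11-array difference; replicate 5 was among the arrays that chose the 343, which fixes that sign.

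The probes of the leading genes are shown here with G and C in capitals, because the difference between the days also moved with base composition. Each line gives the first 30 of the 60 bases, 5′ to 3′, as listed in the scanner output, in the order mitosis, platelets, cell cycle inhibitor, and 2 probes of ZNF503 that disagreed.
CEP55: GtaaaCCaaaaaCttttaaatttCttCaGG
NEK2: atttGGatGCaCtttGGtCattaataCCat
DLGAP5: CaGaCaCatttCttttGGtGGtaaCttGat
PPBP: aattGtaCaGaaaaaattGGCaGGtGatGa
TREML1: GGGaGGGaaCaaGGGtGGaGGGGCCtCttG
ESAM: GtattttttaaaCtaaCatGaaatatGtGt
CDKN1A: aaCaCCttCCaGCtCCtGtatCataCtGGC
ZNF503, called probe: tCttatCttttttattttttGGttaaaGaG
ZNF503, second probe: GCGGCtGCtGGCGCCaCaCCGCCCtCCCtG

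In the rheMac2 coordinates of the scanner output these probes lie at chr9:92991847-92991906 (CEP55, plus strand), chr1:158742343-158742402 (NEK2, plus), chr7:118176564-118176623 (DLGAP5, minus), chr5:55664003-55664062 (PPBP, plus), chr4:40972806-40972865 (TREML1, minus), chr14:122904812-122904871 (ESAM, minus) and chr4:36447567-36447626 (CDKN1A, plus). The ZNF503 probes lie at chr9:61612063-61612122 and chr9:61610672-61610731, both on the plus strand. Each probe is matched by the array's design to a transcript of its gene, and exon or UTR was not analysed here. G and C made up 35% of the CEP55, NEK2, DLGAP5 and PPBP probes, 60% of the TREML1 probe, 21.7% of the ESAM probe and 48.3% of the CDKN1A probe.

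Across all probes, the median log2 difference between day 7 and day 3 was 0.17 in the 5291 probes with over 30 to 35% G and C and −0.28 in the 970 probes with over 55 to 60%. The same slope was present within session 2, where replicate 5 minus the day 3 mean had medians of 0.14 and −0.24 in these classes. Called probes that rose had a median of 38.3% G and C and those that fell 45%, against 43.3% for all probes. Among arrays taken before irradiation, the replicate scanned in session 2 minus the other 6, scanned in session 1, had medians of −0.19 and 0.25 in the same 2 classes. Day 7 minus day 3 is mostly session 1 minus session 2, so in both differences probes rich in G and C were higher in session 2. In that pre-irradiation replicate the called rises were lower by 0.53 and the called falls higher by 0.67 in the median, values from arrays that the comparison did not use. The sign was opposite to that of the day difference in 81.4% of called rises and 82.1% of called falls, against 63.9% of all probes. When each array was centred within 8 classes of base composition, 279 probes were called, 71 higher and 208 lower, and 224 of them were among the 343. The genes of mitosis had a median of 40% G and C and the platelet lists 41.7% and 40%. The part of base composition in any single difference was not tested further.

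**Figure D2:**
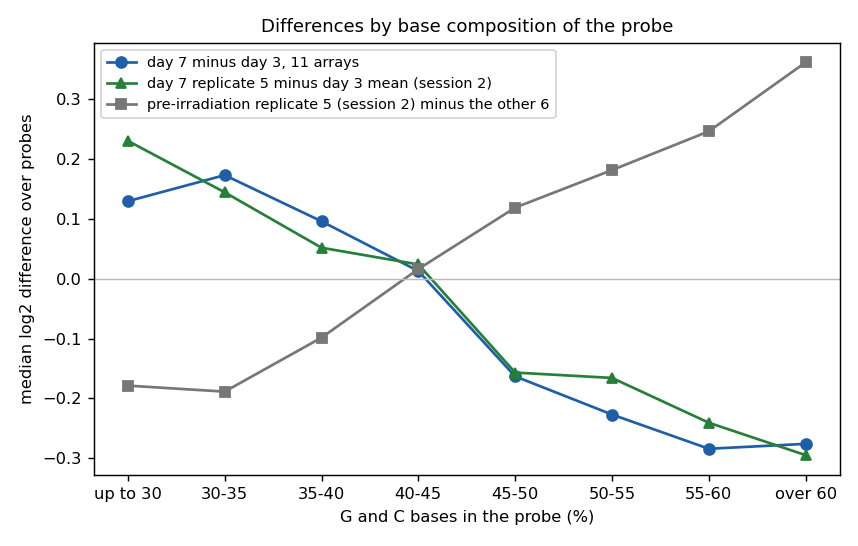
Median log2 difference over the probes of each class of G and C content (horizontal axis, % of the bases of a probe) for day 7 minus day 3 over 11 arrays, for day 7 replicate 5 minus the day 3 mean, and for pre-irradiation replicate 5 minus the other 6 pre-irradiation arrays. The differences between the days fell from 0.17 at 30 to 35% to −0.28 at 55 to 60%, and the pre-irradiation difference rose from −0.19 to 0.25.

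Genes of mitosis build the spindle, carry chromosomes along it and time the exit from division. Of 57 tested, 54 had a positive difference, with a median of 2.04 against −0.02 for all 11013 genes. The median was 0.94, with 0 called, under normexp background correction, and 1.60 over the genes well above background on all 11 arrays, which were 40 of the 57. Of these 57, 4 were called higher (CEP55, NEK2, DLGAP5 and CCNA2) and 0 lower, while 38 were higher and 1 lower at an adjusted p under 0.05. In 33 of the 57 the day 7 arrays all lay above the day 3 arrays. The number of calls depended on the fit, with 28 called higher and 1 lower under the random replicate block, 23 and 1 in the fit of 24 arrays, and 0 with the scan session as a block. Leaving out single arrays gave 0 to 8 genes called higher, with 0 without day 3 replicate 1, 4 or 7 or day 7 replicate 1, 1 without day 7 replicate 3, 8 without day 7 replicate 4, and 2 without any other array. In these fits 1 gene was called lower, without day 3 replicate 2.

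CEP55 organises the bridge between daughter cells at the end of division. Its log2 signal was 2.63, 2.82, 3.02 and 2.26 in day 3 replicates 1, 2, 4 and 7, and in the day 7 arrays the lowest was 5.75, the median 6.39 and the highest 8.65. The groups did not overlap, and in no day 3 array was the probe well above background, so that the signal was at least 4.21-fold higher at day 7. The bound sets the bright group's mean against the dimmest signal measured above background on each array. The fitted log2 difference was 4.17 ± 0.525 (SE; limma, adjusted p = 0.002). Before irradiation CEP55 lay between 4.46 and 5.50, above every day 3 array and below every day 7 array. Only 2 of the pre-irradiation arrays were well above background, so their order against day 3 rests on dim signal.

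NEK2 is a kinase that separates the centrosomes. It gave 2.83, 3.05, 3.23 and 4.11 at day 3 and 5.39, 6.95 and 8.89 (lowest, median, highest) at day 7, at least 4.65-fold higher (log2 difference 3.69 ± 0.509, limma adjusted p = 0.00272). DLGAP5, a protein that stabilises spindle fibres, was well above background on all 11 arrays and rose 9.26-fold, from 5.90, 6.90, 7.40 and 6.87 at day 3 to 8.88, 9.90 and 12.18 at day 7. CCNA2, cyclin A2, which drives S phase and the entry into mitosis, rose 4.54-fold, from 6.81, 6.96, 7.12 and 7.08 to 8.44, 9.12 and 10.45 (limma adjusted p = 0.00499). None of these 4 genes had an array of 1 day inside the range of the other. Replicate 4 of day 7 was the highest in all 4.

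**Figure D3:**
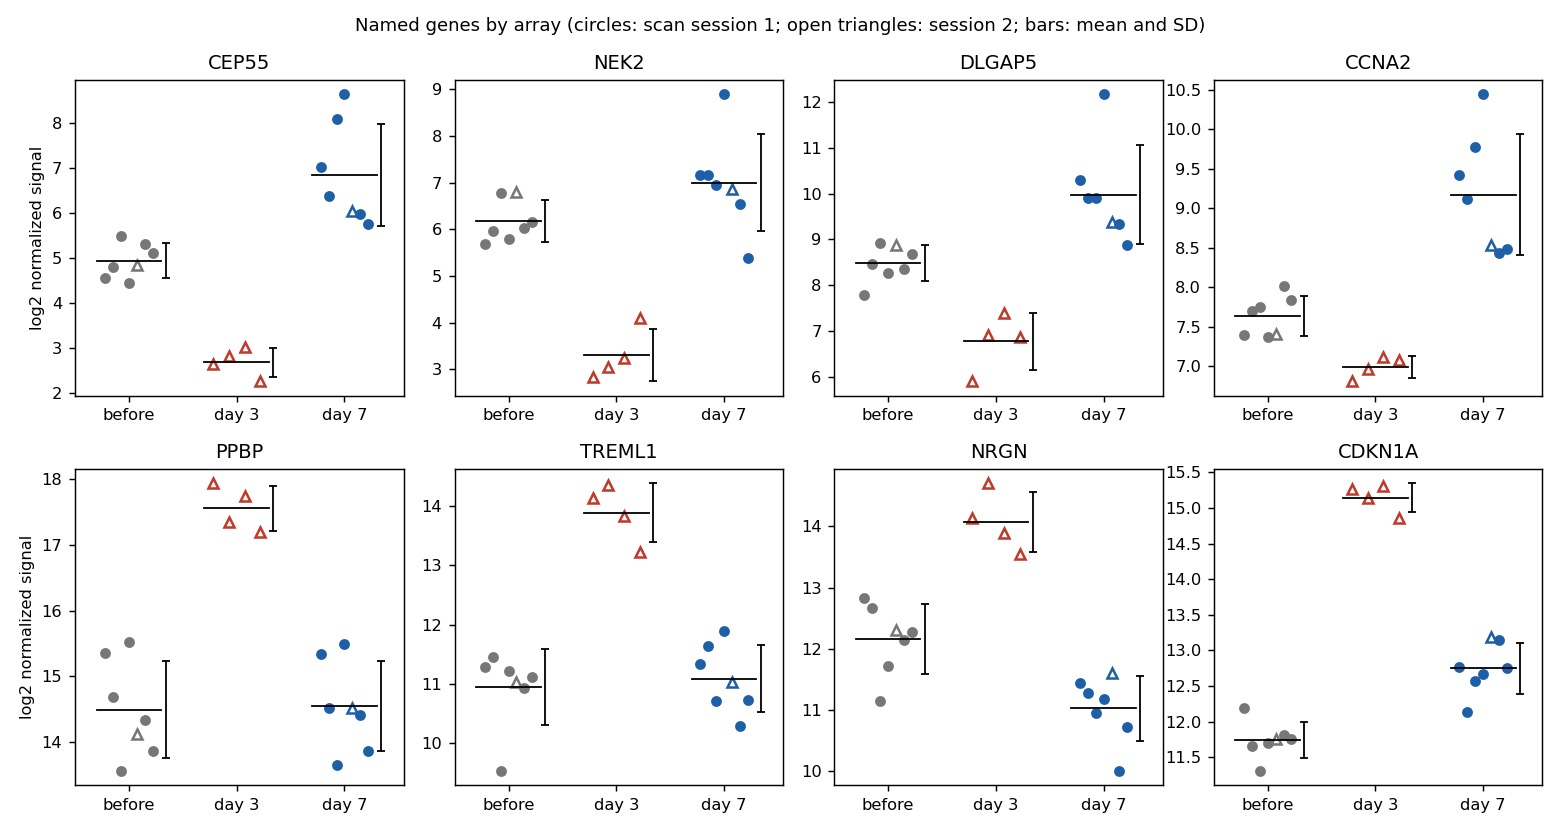
Log2 normalized signal (vertical axis) of 4 genes of mitosis, 3 platelet genes and CDKN1A in each array before irradiation, at day 3 and at day 7. Filled circles were scanned in session 1 and open triangles in session 2, lines give the mean and bars the SD; in all 8 genes the day 3 and day 7 arrays do not overlap, and the open triangle of day 7 lies on the same side of the day 3 arrays as the other day 7 arrays.

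Other genes of the list, chosen here for their role after their values were seen, did not pass the threshold of 0.005 in their brightest probe. The checkpoint kinase BUB1 had a log2 difference of 3.50 (limma adjusted p = 0.00826), the motor KIF20A 3.10 (0.00558), cyclin B2 2.62 (0.00914) and polo-like kinase PLK1 2.18 (0.0057). TOP2A, which untangles chromosomes, had 2.31 and MKI67, a marker of cycling cells, 2.34. CDK1, the kinase that triggers mitosis, had 1.84, and AURKB 0.97 (adjusted p = 0.234). HMMR had 3.35 in its brightest probe and was called in another. PRC1, which bundles the fibres of the mid-spindle, went the other way, with a difference of −2.92 (limma adjusted p = 0.00591), as did NUSAP1 and KIF14 with −1.40 and −0.78.

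The size of the mitotic difference varied between arrays. As medians over the 57 genes, relative to the pre-irradiation mean, the day 3 arrays stood at −1.25, −0.73, −0.63 and −0.61 for replicates 1, 2, 4 and 7. The day 7 arrays of replicates 1 to 7 stood at 1.25, 1.08, 1.39, 2.74, 0.49, 0.54 and 0.21. Every day 3 array lay below the pre-irradiation range of −0.29 to 0.35, and 6 of the 7 day 7 arrays lay above it, with replicate 7 inside it. The paired differences were 2.61, 1.80, 3.40 and 0.97 in replicates 1, 2, 4 and 7. Without day 7 replicate 4 the median was 1.74. Within scan session 2 the median was 1.41.

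**Figure D4:**
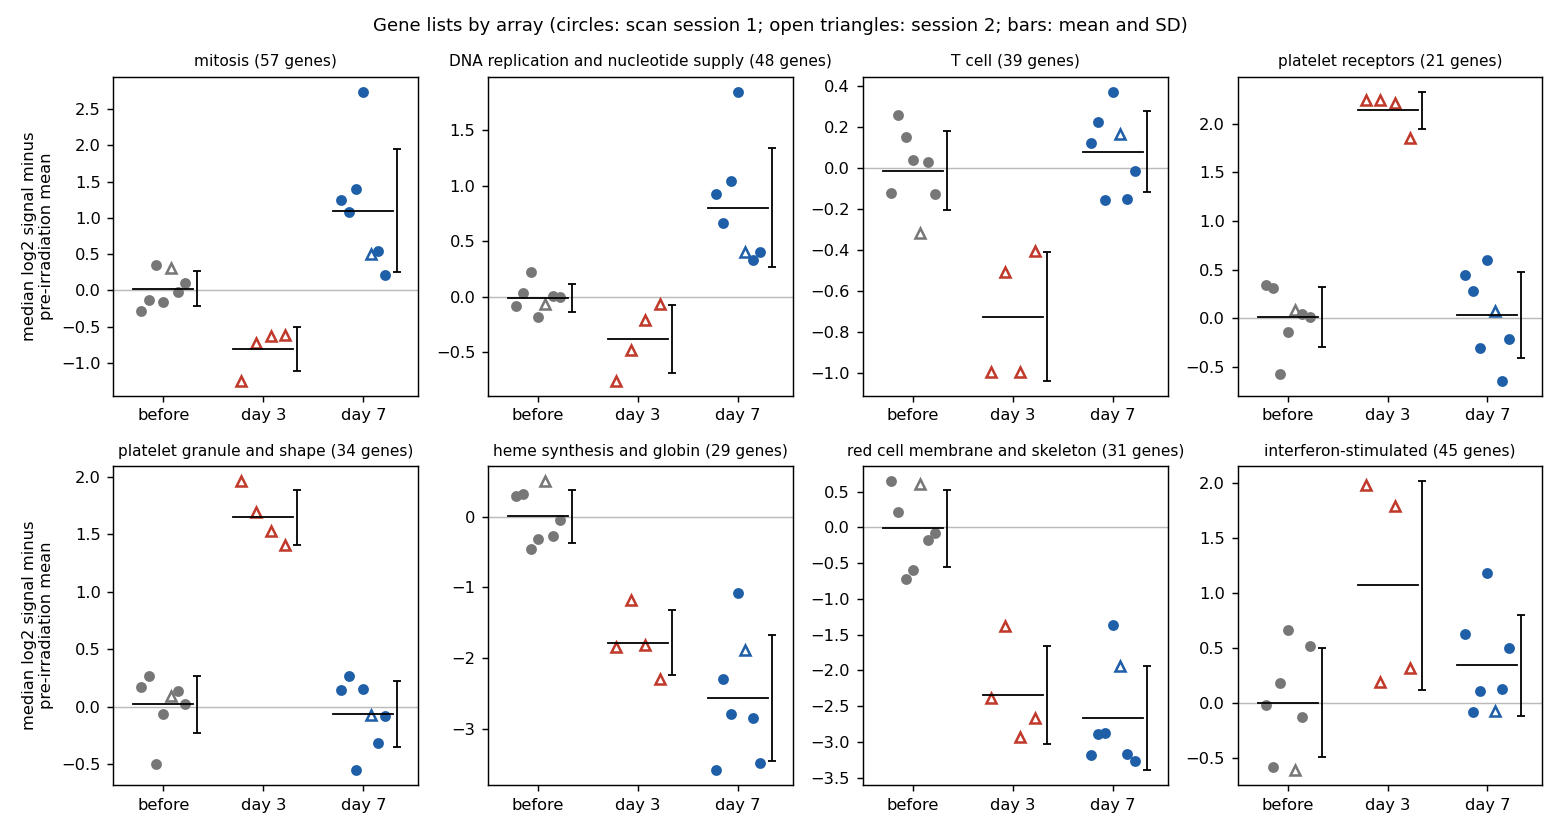
Median over the genes of 8 lists of the log2 signal minus the pre-irradiation mean (vertical axis) in each array before irradiation, at day 3 and at day 7. Filled circles were scanned in session 1 and open triangles in session 2, lines give the mean and bars the SD; mitosis and T cell medians at day 7 lie above all day 3 arrays, platelet medians lie below them and within or near the pre-irradiation range, and red cell and interferon medians overlap between the days.

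Genes of DNA replication and nucleotide supply had a median difference of 1.17, with 42 of 48 positive. Of these 48, 0 were called in limma at 0.005, and 24 were higher and 0 lower at an adjusted p under 0.05. With the random replicate block 10 were called higher. In the fit of 24 arrays with the session as a block 0 were called, and the list's median was 0.72. It was 0.77 within scan session 2 and 0.74 with normexp background correction. The paired medians were 1.64, 0.87, 2.24 and 0.47 in replicates 1, 2, 4 and 7, in the same order of size as those of mitosis. Among factors that load and fire the replicative helicase, the subunit MCM7, a brightest member of the list, had 0.81 (limma adjusted p = 0.0843). Others, chosen for their role after values were seen, were MCM2 at 1.62 (0.0168), CDC45 at 1.98 (0.00952) and CDC6 at 2.01, and thymidine kinase TK1 had 2.27. PCNA, the clamp of the replication fork, differed by 0.16 (adjusted p = 0.658). TYMS, which makes thymidylate, had −0.71 (adjusted p = 0.146).

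Of 31 genes of double-strand break repair and checkpoints, 1 was called higher and 1 lower, and the median was 0.61. RAD51AP1, which takes part in homologous recombination, gave 2.60, 3.39, 3.02 and 3.32 at day 3, where it was not well above background, and 4.88, 5.79 and 7.64 (lowest, median, highest) at day 7, at least 2.41-fold higher (limma adjusted p = 0.00311). The pre-irradiation array of session 2 was 1.42 below the others in RAD51AP1. XRCC2, which acts in the same repair, gave 8.74, 8.53, 8.82 and 8.46 at day 3 and 5.72, 6.25 and 7.01 at day 7, a fall of 5.09-fold (limma adjusted p = 0.000446). Day 3 stood above the pre-irradiation range of 6.11 to 7.85 in XRCC2, and day 7 overlapped that range. The nuclease EXO1 had 1.67 at an adjusted p under 0.05, and BRCA1 0.22 (adjusted p = 0.611).

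Of 39 T cell genes, 36 had a positive difference, and the median was 0.84. Of the 39, 4 were called higher (ICOS, CAMK4, THEMIS and TRAT1), 0 lower, and 12 were higher at an adjusted p under 0.05. The calls were 0 without day 3 replicate 1, 4 or 7 or day 7 replicate 1, 3 or 7, and 1 to 3 without any other array. They were also 0 with normexp background correction, with no filter on dim probes and with the scan session or the fixed replicate number as a block. ICOS, a costimulatory receptor of activated and follicular helper T cells, gave 7.95, 8.51, 8.12 and 8.44 at day 3 and 9.98, 10.11 and 11.75 at day 7, a rise of 4.29-fold. THEMIS, a signalling protein of developing T cells, gave 8.47, 8.85, 8.43 and 8.75 at day 3 and 9.53, 9.82 and 9.92 at day 7, a rise of 2.17-fold. In both genes the 2 days did not overlap. Against the range before irradiation, 1 day 7 array lay above it in ICOS and 3 in THEMIS, and the others lay within it.

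CAMK4, a calcium-dependent kinase, rose 3.02-fold in its brightest probe (log2 difference 1.59), and its second probe had 0.64. TRAT1, which sits with the T cell receptor, rose by 1.06 on the log2 scale. The survival receptor IL7R had 1.24 (limma adjusted p = 0.00742), CD28 1.55 and the receptor chain CD3G 0.86 (adjusted p = 0.0742), while CD3D had 0.44 and CD4 −0.18. Within scan session 2 the list's median was 0.88. In the pre-irradiation arrays the replicate scanned in session 2 was 1.45 lower in ICOS and 0.88 lower in THEMIS than the mean of the other 6, in the direction in which day 3 lay. With the session as a block in the fit of 24 arrays ICOS had 1.29 (limma adjusted p = 0.139) and THEMIS 0.64 (0.195).

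Of the 21 platelet receptor genes tested, 6 were called lower (ESAM, TREML1, ITGB3, GP9, ITGA2B and PEAR1) and 0 higher, and 15 were lower at an adjusted p under 0.05. Of 34 granule and shape genes, 12 were called lower and 0 higher, and 27 were lower at an adjusted p under 0.05. The median differences were −2.36 and −1.56. Under the random replicate block 14 of the 21 and 22 of the 34 were called, and with the scan session as a block 0 of either. Leaving out single arrays gave 0 to 6 calls among receptors and 2 to 11 among granule and shape genes, with 0 and 2 without day 3 replicate 1 and 0 and 4 without day 3 replicate 4. Without day 3 replicate 7 or day 7 replicate 1 or 7 the calls were 2 and 6, without day 7 replicate 3 they were 2 and 8, and without day 3 replicate 2 they were 3 and 8. Without day 7 replicates 5 and 6 in turn they were 3 and 9, and 4 and 8. The receptor median was −1.20 with normexp background correction.

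PPBP, the chemokine precursor that fills platelet granules, gave 17.94, 17.36, 17.75 and 17.19 in day 3 replicates 1, 2, 4 and 7, and 13.65, 14.52 and 15.49 (lowest, median, highest) at day 7. All day 7 arrays lay below all day 3 arrays, and the level at day 3 was 8.08-fold higher (log2 difference −3.01 ± 0.35, limma adjusted p = 0.00126). Before irradiation PPBP lay between 13.57 and 15.53, the range to which all 7 day 7 arrays belonged. PF4, platelet factor 4, followed the same order, with 18.20, 17.95, 18.06 and 17.48 at day 3 and 13.64, 14.89 and 15.93 at day 7.

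NRGN, neurogranin, a calmodulin-binding protein also found in platelets, gave 14.15, 14.70, 13.89 and 13.55 at day 3 and 10.01, 11.18 and 11.60 at day 7, lower by 3.05 ± 0.314 on the log2 scale (limma adjusted p = 0.000611). CTTN, cortactin, which binds actin filaments, was 9.27-fold lower, with 3 of 7 day 7 arrays well above background, and MYL9, the light chain of platelet myosin, 7.12-fold. TUBB1, the tubulin of the platelet ring, was 5.62-fold lower and the clotting factor F13A1 3.53-fold. Each of these 5 genes had no overlap between the days.

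Among the receptors, ESAM, an adhesion molecule of platelets and endothelium, gave 12.85, 12.89, 12.49 and 11.78 at day 3 and 8.42, 9.44 and 10.34 at day 7, a fall of 8.67-fold. TREML1, a granule receptor shown on activated platelets, gave 14.13, 14.37, 13.84 and 13.22 at day 3 and 10.28, 11.03 and 11.89 at day 7, a fall of 6.97-fold. ITGB3 and ITGA2B, the 2 chains of the fibrinogen receptor, fell 6.29-fold and 5.55-fold in the fit, where ITGB3 was well above background in 2 of 7 day 7 arrays, and GP9, a part of the von Willebrand receptor, 5.57-fold. Its partner GP1BA differed by −2.96 (limma adjusted p = 0.00622). Replicate 7 was the lowest day 3 array in ESAM, TREML1 and GP9, and still lay above every day 7 array.

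The platelet difference was similar in the 4 pairs of replicate numbers. The paired medians of the receptors were −1.89, −1.85, −1.56 and −1.85 in replicates 1, 2, 4 and 7, and those of the granule and shape genes −1.59, −1.33, −1.57 and −1.57. Relative to the pre-irradiation mean the receptor medians stood between 1.85 and 2.25 at day 3 and between −0.64 and 0.60 at day 7. Within scan session 2 the lists' medians were −2.16 and −1.71. The endothelial and fibroblast list had 0 of 12 called and a median of 0.09, which turned sign without day 7 replicate 5 and without day 3 replicate 2 or 4.

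**Figure D5:**
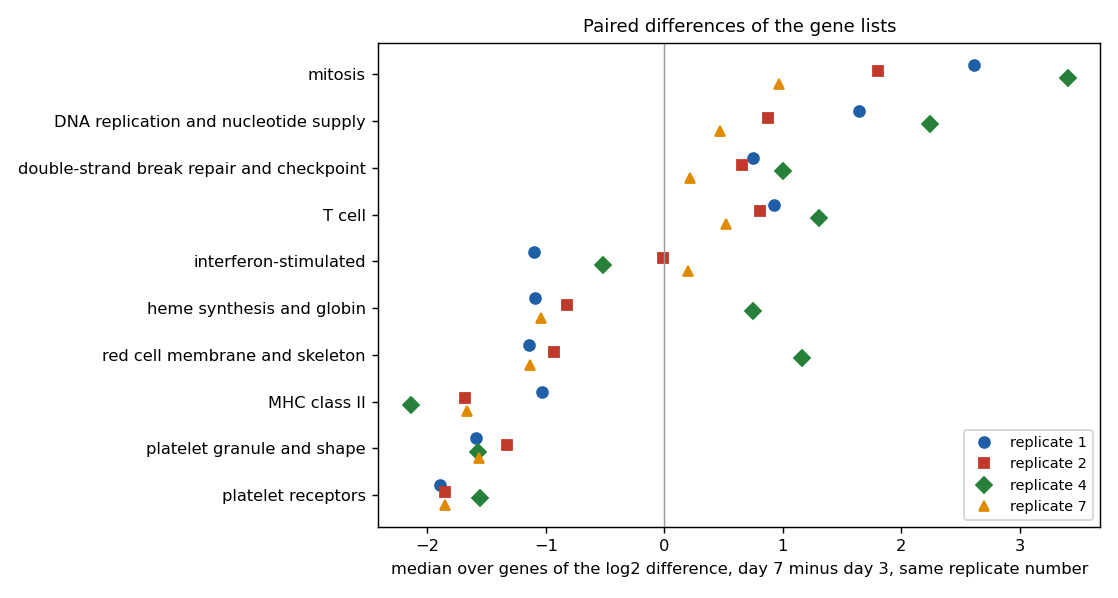
Median over the genes of 10 lists (rows) of the log2 difference between day 7 and day 3 of the same replicate number (horizontal axis), with a symbol for each of replicates 1, 2, 4 and 7. The 4 pairs lie together at −1.3 to −1.9 for both platelet lists, spread from 0.97 to 3.40 for mitosis, and lie on both sides of 0 for the red cell lists, where replicate 4 is apart.

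The called genes GATA1, GFI1B, GATA2 and MEIS1 encode transcription factors that are also active in the megakaryocyte line. Of these, GFI1B is already counted in the platelet granule and shape list. GATA1, a master regulator of red cells and megakaryocytes, was the only called member of the heme and globin list and fell 5.66-fold, from 9.15, 10.91, 9.62 and 9.89 at day 3 to 6.44, 7.52 and 8.21 at day 7. All 7 day 7 arrays lay below the pre-irradiation range of GATA1, which was 8.62 to 10.18. GFI1B, a repressor of both lines, fell by 2.71 on the log2 scale. GATA2, counted here with basophils and mast cells, fell 5.63-fold and MEIS1, counted with stem cells, 4.62-fold. EGFL7, a secreted factor of endothelium and stem cells, fell 4.61-fold. PRG3, an eosinophil granule protein, fell 3.99-fold, from 15.06, 14.26, 15.06 and 14.29 to 12.11, 12.60 and 13.37.

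In 2 of these genes the pre-irradiation array of session 2 lay apart in the direction of day 3, by 1.57 in GATA2 and 1.11 in PRG3. In the fit of 24 arrays with the scan session as a block, GATA2 had −1.54 (limma adjusted p = 0.239) and PRG3 −1.28 (0.0793). With session and replicate number as blocks GATA2 had −0.98 (0.294). The basophil, mast cell and eosinophil list as a whole had 2 of 15 called and a median of −1.83, and the stem and progenitor list 2 of 15 and −0.29. MYB, a factor of dividing progenitors, stood at 1.63 (limma adjusted p = 0.0128) and KIT, their growth factor receptor, at −1.36 (adjusted p = 0.0403).

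CDKN1A, the inhibitor that halts the cell cycle, gave 15.26, 15.14, 15.31 and 14.86 at day 3 and 12.14, 12.75 and 13.19 at day 7. It fell 5.26-fold (log2 difference −2.40 ± 0.221, limma adjusted p = 0.000377). Before irradiation it lay between 11.31 and 12.19, so that 6 of the 7 day 7 arrays remained above that range.

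Of 7 other genes that respond to radiation and were looked at singly, 0 were called in limma at 0.005 and 3 had an unadjusted p under 0.05, as 8868 of all 27127 probes had. EDA2R, a receptor of the TNF family, had a difference of 0.42 (limma adjusted p = 0.43) and lay between 9.24 and 10.95 on all 11 arrays, against at most 5.94 before irradiation. TNFRSF10B, the death receptor for TRAIL, had 0.41 (adjusted p = 0.371) and DDB2, a damage sensor, −0.04 (adjusted p = 0.91). MDM2, a ubiquitin ligase, had −0.70 (adjusted p = 0.0852), PHLDA3 −0.76 (0.146), BAX −0.56 (0.533) and FDXR −0.93 (0.0346).

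Red cell genes varied widely between day 7 arrays. Of 29 heme and globin genes 1 was called (GATA1, above), and of 31 membrane genes 0. HBB gave 18.20, 18.38, 18.16 and 17.55 at day 3, and 11.78, 15.24 and 18.30 (lowest, median, highest) at day 7, with replicate 4 the highest and replicate 7 the lowest. ALAS2, which starts heme synthesis in red cells, spanned 8.40 to 17.68 at day 7 and 14.23 to 15.79 at day 3. The list medians were −0.69 and −0.82 over all arrays and 0.29 and 0.10 within scan session 2, so that the sign turned. The paired medians were −1.09, −0.82, 0.75 and −1.04 for heme and globin, with replicate 4 opposed to the others. Globin transcripts had been depleted before labelling.

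Of 31 B cell genes 0 were called, and the median was −0.14. CD79A, a chain of the B cell receptor complex, had −0.14 (limma adjusted p = 0.784) and MS4A1 −0.56 (adjusted p = 0.373). Relative to the pre-irradiation mean the list stood between −2.99 and −1.97 at day 3 and between −3.02 and −2.16 at day 7. The plasma cell list had 0 of 14 called and a median of 0.39. Among MHC class II genes, which present peptides on B cells and monocytes, 11 of 12 had a negative difference, 0 were called, and the median was −0.96. The list's median was negative in all 4 pairs of arrays with the same replicate number, between −2.14 and −1.04. Every pair lies across the scan sessions, and within scan session 2 the list's median was −0.50. With the replicate number as a random block 2 of the 12 were called, MAMU-DPB among them (limma adjusted p = 0.0044).

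Genes of innate cells were read against the 1.59% of all genes called. In the neutrophil primary granule, secondary granule and mature neutrophil lists 0 of 15, 0 of 19 and 1 of 30 were called, with medians of −0.40, −0.46 and −0.32. Of the 19 secondary granule genes 9 had a positive and 10 a negative difference. Within scan session 2 the medians were 0.11, −0.19 and −0.18, so that of the primary granule list turned sign, and with session and replicate blocks in the fit of 24 arrays that of the secondary granule list was 0.01. The called gene, NCF1, a subunit of the oxidase that makes superoxide, gave 17.73, 17.42, 17.55 and 16.93 at day 3 and 15.56, 15.97 and 16.43 at day 7. In NCF1 the pre-irradiation array of session 2 was 1.09 above the other 6, and with the session as a block in the fit of 24 arrays the difference was −0.73 (limma adjusted p = 0.186). The monocyte list had 0 of 31 called and a median of −0.60, and CD14 differed by −0.94 (adjusted p = 0.193). Of 17 scavenger and tissue macrophage genes 1 was called, MSR1, a scavenger receptor, at least 2.83-fold lower at day 7.

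Of 29 NK cell and cytotoxic genes 1 was called. TBX21, the factor T-bet that sets the cytotoxic programme, gave 13.23, 12.45, 13.53 and 13.41 at day 3 and 10.81, 11.46 and 11.78 at day 7, a fall of 3.48-fold. The pre-irradiation array of session 2 was 2.15 above the mean of the others in this gene. With the session as a block in the fit of 24 arrays the difference of TBX21 was −0.66 (limma adjusted p = 0.421), and −0.79 (0.269) with session and replicate number. The list's median was 0.29, and granzyme B and perforin had −0.11 and 0.16.

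The interferon-stimulated genes had 0 of 45 called and a median of −0.73, with 41 of 45 negative. The 4 day 3 arrays were unlike each other in these genes, with list medians of 1.99 and 1.79 in replicates 1 and 4 and of 0.19 and 0.32 in replicates 2 and 7. MX1, an antiviral GTPase, gave 16.31, 14.18, 16.25 and 14.67 at day 3 and 13.18, 14.45 and 15.43 at day 7, and the days overlapped. Among inflammatory genes 1 of 42 was called, the chemokine CXCL3, which fell 5.07-fold (log2 difference −2.34, and −1.54 with session and replicate number as blocks in the fit of 24 arrays), and among immediate early genes 1 of 26, the stress phosphatase subunit PPP1R15A, which fell 3.02-fold. The ribosomal protein, oxidative phosphorylation and proteasome lists had 0 of 72, 0 of 65 and 0 of 30 called, with medians of −0.24, −0.06 and −0.01.

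The largest called changes outside the lists held genes of varied roles. Among rises were CGA, the alpha chain of pituitary glycoprotein hormones, PSAT1, an enzyme of serine synthesis, the mitotic kinase MELK, COMMD8 and the helicase ZGRF1. CGA gave 2.79, 3.03, 4.17 and 4.15 at day 3, none well above background, and 5.88, 6.96 and 7.22 at day 7, at least 3.91-fold higher (limma adjusted p = 0.000865). Its range before irradiation was 7.10 to 7.86. PSAT1 was at least 4.33-fold and COMMD8 at least 2.18-fold higher at day 7, MELK 5.40-fold and ZGRF1 4.25-fold. In ZGRF1 the pre-irradiation array of session 2 was 1.12 below the others, and with the session as a block in the fit of 24 arrays the difference was 1.10 (limma adjusted p = 0.301).

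Among falls, ZNF503, a zinc finger repressor, gave 7.20, 7.75, 6.70 and 6.38 at day 3 and 1.76, 2.61 and 3.86 at day 7, at least 4.84-fold lower, and none of the 7 day 7 arrays was well above background. The second ZNF503 probe, printed above, is brighter, holds 75% G and C and differed by −0.20 (limma adjusted p = 0.706). CMTM5, of the chemokine-like factor family, fell 15.6-fold in 1 probe, and its brighter probe differed by −3.56 and was not called. The light chain MYL10 fell 12.6-fold, the mitochondrial nucleotidase NT5M 12.4-fold and ANKRD53 11.7-fold. The second MYL10 probe had −2.16 and was not called. ABLIM3, which binds actin, fell by 3.32 on the log2 scale in a probe that is not its brightest, and by 1.78 in the fit of 24 arrays with session and replicate number as blocks. Of the other 2 ABLIM3 probes, 1 was called, with −3.23, and 1 was not, with −2.65. These are fitted values, and of the 7 day 7 arrays NT5M and ABLIM3 were well above background in 3 and ANKRD53 in 1. MYL5 and TAC1, the precursor of substance P, were at least 3.97-fold and 2.97-fold lower. TAC1 in the pre-irradiation array of session 2 was 1.71 above the others, ANKRD53 1.14 and the called ZNF503 probe 1.12. With the session as a block in the fit of 24 arrays TAC1 had −2.35 (limma adjusted p = 0.253), ANKRD53 −2.84 (0.124) and this ZNF503 probe −4.25 (0.089).

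Called probes were also set against the arrays before irradiation. In 54 of the 86 rises all day 3 arrays lay below the 7 pre-irradiation arrays while day 7 overlapped them. Day 7 lay above all pre-irradiation arrays in 7 rises whose day 3 arrays overlapped these and in 4 whose day 3 arrays lay below them, and both days overlapped them in 19. In 114 of the 257 falls all day 3 arrays lay above the pre-irradiation arrays while day 7 overlapped them. Day 7 lay below all pre-irradiation arrays in 28 falls whose day 3 arrays overlapped these and in 4 whose day 3 arrays lay above them, and both days overlapped them in 110. Over all probes tested, day 3 below with day 7 overlapping held for 8.46% and day 3 above with day 7 overlapping for 7.71%, while day 3 overlapping with day 7 above held for 1.61% and with day 7 below for 2.02%. The choice of probes by their difference between the days raises such shares. Because 6 of the 7 pre-irradiation arrays and 6 of the 7 day 7 arrays shared session 1, the day and the session cannot be told apart in these counts.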

How the data were processed

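Whole blood RNA was hybridised to single-colour Agilent rhesus arrays, 43603 probes each, whereas a human design is named in the study's methods. The authors deposited the scanner output, whose processed signal is an intensity on a linear scale with background subtracted, made with Agilent Feature Extraction 10.7 per the labels (12.0.2.2 per the file headers), and a matrix of log2 values normalized to the median array, used as an alternative.

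Here the processed signal was taken to log2, spots marked as outliers were left out, saturated spots kept, and each array shifted by its median difference to the middle array. A probe was tested if the scanner software marked it as well above background on 4 or more of the 24 arrays. Such marks were set for 48.3 to 60.9% of probes on the 11 arrays compared. Precision is limited by how few arrays there are. In the lists a gene's level is that of its brightest probe; the largest rises and falls were taken over probes, whichever probe of the gene was called. Symbols came from the scanner output (23054 probes) or from matching accessions to RefSeq (1243 probes).

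Day 7 and day 3 were compared by limma 3.58.1 (R 4.3.3, statmod 1.5.0), two-sided, with Benjamini-Hochberg adjustment over all probes and a threshold of 0.005. The script was tested on simulated data. Python 3.11.15 with pandas 2.3.3 and numpy 2.4.6 made the summaries and matplotlib 3.10.9 the figures. The labels do not tie arrays to animals, and p-values measure the spread between arrays. Deviations from the group means of same-numbered arrays correlated at 0.286 to 0.463 in the 4 pairs and those of other numbers at −0.341 to 0.295 (median −0.093), so the numbers were taken as pairs. Every pair lies across the scan sessions.

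The text names the 10 largest rises and falls among called probes that passed background on all arrays of the brighter day, did not overlap and moved alike in all 4 pairs, the 3 largest called genes of each list (or its 2 brightest where none was called), and 8 genes that respond to radiation, CDKN1A and 7 others. Some items are not reported here. Other genes were chosen for their role after values were seen. The comparison, the 27 gene lists and the rules were chosen with earlier results of these data known. Promoter sequences were not analysed here.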

Additional observations from a re-analysis of the deposited data

Results flagged for a closer look

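Over 202 sets of array values (each named gene and each list's median within a day), the highest or lowest array stood apart from the rest of its group by more than Dixon's critical ratio in 14; chance alone gives about 1 in 20. Day 7 replicate 4 stood above the other 6 arrays in DLGAP5 (12.18, others 8.88 to 10.30), PSAT1 (8.53, others 6.25 to 7), MELK (9.67, others 7.45 to 8.35) and ICOS (11.75, others 9.98 to 10.46). The same array had the highest list median of the double-strand break repair genes (0.827, others 0.193 to 0.312) and of the proteasome genes (0.393, others −0.527 to −0.146). Without it 261 probes were called, and DLGAP5, PSAT1, MELK and ICOS kept their direction. Day 7 replicate 2 stood apart in COMMD8 (6.62, others 5.62 to 5.98) and TPM3 (20.07, others 17.82 to 18.69).

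At day 3, replicate 7 stood above the others in PCNA (14.10, others 13.45 to 13.52) and below them in the median of the platelet receptors (1.85, others 2.22 to 2.25). Replicate 1 was the highest in ITGB3 (8.04, others 7.15 to 7.26), in RPS19 (19.48, others 19.08 to 19.14) and in the median of the secondary granule genes (1.60, others 0.776 to 0.874). Replicate 2 was the lowest in BAX (11.24, others 12.10 to 12.27). What set these arrays apart was not tested.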

How the results depend on the processing

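Of the 41 called genes taken by the naming rule, 41 lost their call with the replicate number or the scan session as a fixed block, 38 in all groups with the session block, 26 in all groups with session and replicate blocks, 32 with normexp, 24 with no filter, 11 with base composition centring, and 8 to 34 when a single array was left out. None turned sign, which their choice as called and not overlapping largely fixes. Their values moved by over 1.5 times in 21 with normexp, in 7 in all groups with the session block and in 6 with session and replicate blocks. Against 343 called probes and 40 called list genes, the counts were within 1.5 times with the 75th percentile, quantile normalization, both stricter filters, outlier spots kept, the deposited matrix, sex as a covariate, and base composition centring (279 and 30, chosen after seeing the data). They were 1904 and 111 with the random replicate block, 0 and 0 with the fixed replicate block, 0 and 0 with the scan session as a block or within session 2 (2376 and 2961 probes at an unadjusted p under 0.05), 25 and 4 in all groups with the session as a block, 2178 (of 27133 probes) and 112 in all 4 groups in 1 fit, 78 and 14 with no filter, 62 and 12 with normexp background, and 4353 and 193 at an adjusted p under 0.05. Normexp left 0 of 62 calls higher and the deposited matrix 30 of 247, against 86 of 343. Trend and robust variances called 525 probes and slide as a random block 664. Of fits added after seeing the data, all groups with a replicate block called 3679 and 174, all groups with session and replicate blocks 469 and 35, and centring with the random replicate block 1648 and 107. Leaving out single arrays gave 24 to 313 probes and 4 to 38 list genes; without day 3 replicates 1, 4 and 7 the counts were 24, 26 and 77, and without day 7 replicates 1, 3, 5, 6 and 7 they were 53, 111, 179, 131 and 75. The cause of these shifts was not tested; the fits without an array or within session 2 hold fewer arrays. The medians of both red cell lists turned sign in all 4 fits with a session term or within session 2, that of the proteasome list in 9 fits, that of oxidative phosphorylation in 5, and those of 6 other lists in 1 to 4, among them the neutrophil primary granule list in 2 and the secondary granule list in 1. List medians of the mitosis, replication, T cell and platelet lists kept their sign in every fit, between 0.94 and 2.26 for mitosis and between −2.43 and −1.20 for platelet receptors. Saturation touched at most 17 spots on any of the 11 arrays.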
